A study of Mus musculus with 6 samples.

Results

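The genes described here encode the enzymes and the transporter that make or store the mediators of mast cells and basophils. They are Hdc, Tph1 and Slc18a2 for the amines, Hpgds, Ptgs1 and Ptgs2 for the prostaglandins, Alox5, Alox5ap and Ltc4s for the leukotrienes, and Cyp11a1 for steroid synthesis. The 10 symbols were chosen by function, with earlier results of these data known. Their members on the array were all probe sets, other than controls, to which the platform annotation gives exactly 1 of these symbols. This gave 13 of 45037 probe sets, for 9 of the 10 genes. Ptgs1, the constitutive cyclooxygenase, had no such probe set and was not analysed here. Of the 13 probe sets, 12 passed a filter on low signal and were tested, and 1 of the 3 probe sets of Cyp11a1 did not.

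Total RNA was measured on 6 Affymetrix mouse arrays, 3 for KSL cells expanded with mD1R and 3 for KSL cells expanded with PBS. KSL cells are bone marrow cells with Kit and Sca-1 and without lineage markers, a gate for blood stem cells and early progenitors, here from C57BL/6J mice. Cells of both groups were grown for 7 days with the mouse cytokine mix m5GF. The feeder layer was human endothelial cells from umbilical vein (HUVECs). The cells were then sorted by the KSL gate once more. Every measurement is therefore of cells taken by this gate after culture on a human feeder layer. The labels do not spell out mD1R, which is known from the study as an engineered protein with the receptor-binding domain of mouse Delta-like 1, a Notch ligand, and a motif that holds it on endothelial cells. The arrays of a group are labelled as biological replicates, and the labels do not say whether they come from separate animals or separate cultures. The p-values therefore measure the spread between these samples.

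Mast cells and basophils keep histamine and serotonin in granules and release them on activation. Hdc and Tph1 carry out the committed steps of histamine and serotonin synthesis, and Slc18a2 pumps both amines into the granules. The same cells make lipid mediators from arachidonate, which cyclooxygenases turn into prostaglandin precursors and lipoxygenase turns into leukotriene precursors. These genes are not private to mast cells: Hdc, Alox5 and Alox5ap are also known from mouse granulocytes and their precursors, and Ptgs2 is an inducible gene of many cell types.

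With mD1R, 4 of the 9 measured genes were higher than with PBS and 0 lower, where among all 12320 genes tested 15.6% were called, 8.49% higher and 7.09% lower. They were Cyp11a1, Tph1, Slc18a2 and Ltc4s. By brightest probe set the fitted changes were 10.7-fold for Cyp11a1, 7.12-fold for Tph1 and 5.06-fold for Slc18a2. For Cyp11a1 the log2 change was 3.41 on that probe set and 2.30 as the mean of its tested probe sets. The PBS signals of Ltc4s lay mostly below the filter level. It passed the filter through the mD1R arrays, and the size of its change is imprecise. Hdc, Alox5, Alox5ap, Ptgs2 and Hpgds did not pass the test in either direction. Counted by probe set, 4 of 12 were higher and 0 were lower in limma at an adjusted p of 0.05, against 6.13% higher and 6.5% lower among all 27022 probe sets tested. At an unadjusted limma p of 0.05, 6 of the 12 were higher and 1 was lower, where 8048 of all 27022 probe sets tested passed in either direction. The median log2 change of the 12 was 0.78, against 0.00 for all probe sets tested. In sorted cells measured in bulk, more cells of one type and more RNA per cell cannot be told apart, which applies to every change given here.

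**Figure D1:**
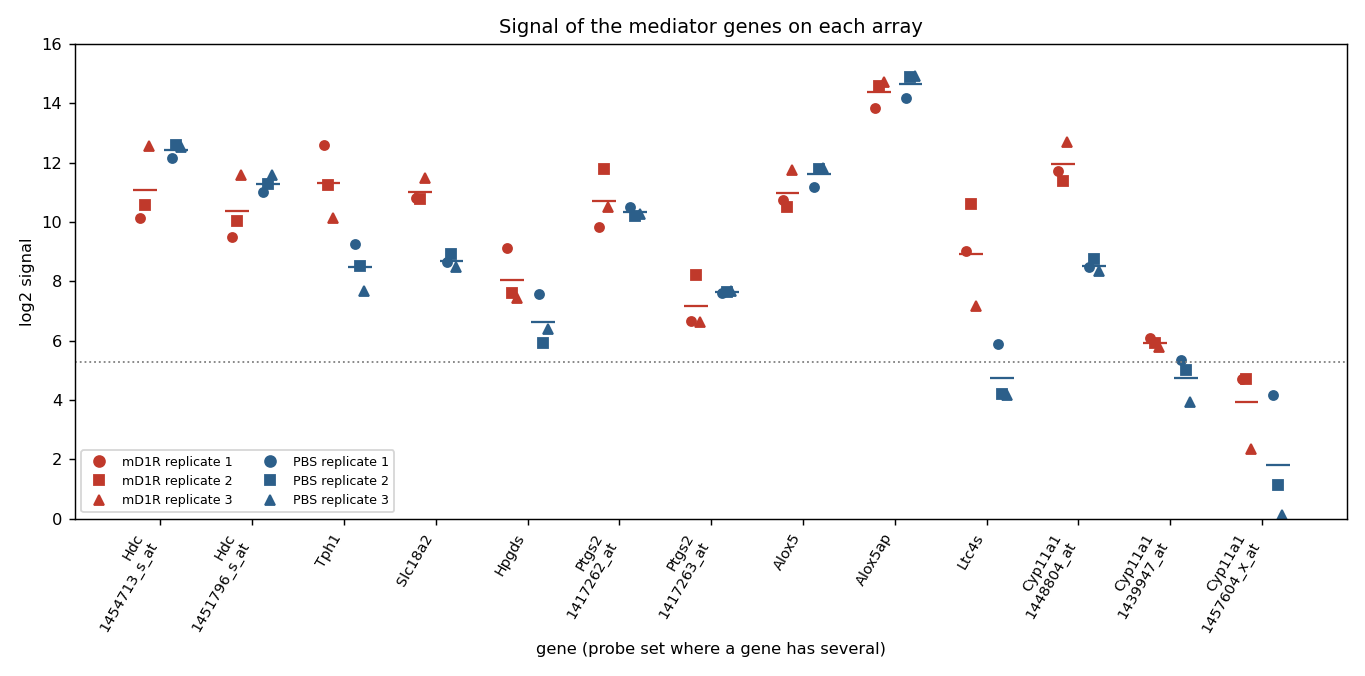
Log2 signal (vertical axis) of the 13 probe sets of the mediator genes (horizontal axis) on each array, with mD1R arrays in red on the left and PBS arrays in blue on the right of each pair. Marker shape gives the replicate number, the short line is the group mean, and the dotted line is the filter level of 5.27; levels of different probe sets are not comparable. The groups stand apart for Tph1, Slc18a2, Ltc4s and the 2 brighter probe sets of Cyp11a1, and overlap for the other 8.

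The promoter windows of the 4 genes that were higher are shown because they moved in the same direction. Each runs from 250 bases before to 50 bases after an annotated start of the gene in RefSeq, in the GRCm38.p6 build, 5′ to 3′ on the strand of the gene. By symbol, 9 of the 10 genes matched the promoter table, Alox5ap being the exception, and Tph1 and Cyp11a1 have 2 windows each. Capitals mark matches to AGATAA or TGATAA, letters that GATA factors read, and to CATGTG or CACGTG, E-box letters that Mitf and other factors read. Both strands were searched, and none of the 4 matches found in the 11 windows of these 9 genes overlapped another.
Tph1, chr7:46672488-46672787, minus strand: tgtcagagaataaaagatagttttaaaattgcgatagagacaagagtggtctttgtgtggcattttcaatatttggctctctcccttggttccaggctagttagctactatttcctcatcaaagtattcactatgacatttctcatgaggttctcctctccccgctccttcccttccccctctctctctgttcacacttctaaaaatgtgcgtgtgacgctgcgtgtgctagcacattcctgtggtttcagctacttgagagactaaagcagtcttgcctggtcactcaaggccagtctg
Tph1, chr7:46667328-46667627, minus strand: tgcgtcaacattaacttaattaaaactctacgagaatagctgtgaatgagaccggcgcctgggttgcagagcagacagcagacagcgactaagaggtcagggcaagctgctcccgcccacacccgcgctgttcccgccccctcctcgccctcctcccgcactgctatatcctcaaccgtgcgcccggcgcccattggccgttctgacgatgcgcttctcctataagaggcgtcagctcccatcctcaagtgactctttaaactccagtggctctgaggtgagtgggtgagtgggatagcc
Slc18a2, chr19:59260628-59260927, plus strand: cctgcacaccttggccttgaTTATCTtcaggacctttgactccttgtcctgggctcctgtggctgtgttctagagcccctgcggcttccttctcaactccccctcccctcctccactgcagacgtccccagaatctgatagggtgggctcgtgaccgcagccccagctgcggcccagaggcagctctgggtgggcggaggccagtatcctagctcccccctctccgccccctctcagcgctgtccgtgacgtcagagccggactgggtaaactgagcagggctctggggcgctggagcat
Ltc4s, chr11:50238483-50238782, minus strand: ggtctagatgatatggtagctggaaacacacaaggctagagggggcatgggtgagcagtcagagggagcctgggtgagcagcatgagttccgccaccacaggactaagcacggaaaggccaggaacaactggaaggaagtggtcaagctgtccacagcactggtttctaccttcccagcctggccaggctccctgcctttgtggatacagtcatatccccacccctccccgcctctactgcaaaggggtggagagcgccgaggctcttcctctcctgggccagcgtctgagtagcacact
Cyp11a1, chr9:57997774-57998073, plus strand: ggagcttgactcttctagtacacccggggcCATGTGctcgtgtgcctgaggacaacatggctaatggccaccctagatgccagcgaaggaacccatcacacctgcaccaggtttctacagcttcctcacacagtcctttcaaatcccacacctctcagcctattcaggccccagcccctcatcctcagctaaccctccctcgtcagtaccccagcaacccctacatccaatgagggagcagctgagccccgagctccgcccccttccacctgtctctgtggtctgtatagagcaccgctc
Cyp11a1, chr9:58014702-58015001, plus strand: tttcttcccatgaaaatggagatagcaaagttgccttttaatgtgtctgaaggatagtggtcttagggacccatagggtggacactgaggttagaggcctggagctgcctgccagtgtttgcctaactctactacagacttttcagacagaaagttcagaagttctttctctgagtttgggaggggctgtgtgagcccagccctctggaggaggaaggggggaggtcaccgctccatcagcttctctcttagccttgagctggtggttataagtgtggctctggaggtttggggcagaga

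Slc18a2 was the only one of these genes with AGATAA or TGATAA in its windows. It held a single AGATAA on the opposite strand that begins at position -230 relative to the start. Other letters around GATA were not searched or marked. AGATAG stands in the first Tph1 window and the second Cyp11a1 window, and TGATAG in that of Slc18a2. Among all 32851 promoter windows of this length, 18.6% held AGATAA or TGATAA. The upstream window of Cyp11a1 held CATGTG from position -220, and the windows of Tph1 and Ltc4s held neither kind of match. E-box letters were also found in Hpgds (CATGTG, from -80) and Ptgs2 (CACGTG, from position 17 after the start), which did not pass the test, and in 20.4% of all windows. The matches are a description of these letters in these windows.

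Among the amine genes, Tph1 and Slc18a2 rose and Hdc did not pass the test. Tph1, the tryptophan hydroxylase of tissues outside the brain, had log2 signals of 12.58, 11.24 and 10.13 in mD1R replicates 1, 2 and 3, against 9.26, 8.51 and 7.69 in PBS replicates 1, 2 and 3. Every mD1R array was above every PBS array, and the lowest mD1R value, in replicate 3, lay 0.87 above the highest PBS value. The change was 2.83 ± 0.62 on the log2 scale (SE, n = 3 per group, limma adjusted p = 0.0264). The call was lost without mD1R replicate 2 (adjusted p = 0.0862) and without PBS replicates 1, 2 or 3 (0.0510, 0.0834 and 0.104), while the change stayed between 2.43 and 3.22 in those fits.

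Slc18a2, the vesicular monoamine transporter, had log2 signals of 10.82, 10.77 and 11.47 in mD1R replicates 1, 2 and 3, against 8.65, 8.92 and 8.47 in the PBS replicates. The groups did not overlap, the gap between them was 1.85, and mD1R replicate 3 was the highest array. The change was 2.34 ± 0.24 (SE, n = 3 per group, limma adjusted p = 0.00961). It lost its call only without PBS replicate 3 (change 2.24, adjusted p = 0.0675), a setting in which limma called 0 of all 27022 probe sets and 5853 had an unadjusted p under 0.05.

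Hdc, which makes histamine from histidine, did not follow the other amine genes. Its brighter probe set, 1454713_s_at, had log2 signals of 10.15, 10.58 and 12.55 in the mD1R replicates, against 12.15, 12.59 and 12.54 in the PBS replicates. The second, 1451796_s_at, had 9.51, 10.02 and 11.57 in the mD1R replicates, against 11.00, 11.27 and 11.58 in the PBS replicates. On both probe sets mD1R replicates 1 and 2 were the lowest arrays, and mD1R replicate 3 lay within the PBS range. The changes were -1.34 ± 0.55 (SE, adjusted p = 0.150) and -0.92 ± 0.48 (adjusted p = 0.245), and neither passed. Without mD1R replicate 3 they were -2.06 (adjusted p = 0.00136) and -1.52 (adjusted p = 0.00576). With array weights and no array left out, limma also called both lower (adjusted p = 0.0185 and 0.0484). Whether Hdc is called lower thus depends on mD1R replicate 3 and on how the arrays are weighted. The arrays fall into 2 spike-in batches, described below with the markers. Within batch A, which lacks mD1R replicate 3, the Hdc changes were -1.79 and -1.24, and within batch B, where it is the only mD1R array, they were -0.02 and 0.15.

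The prostaglandin genes did not pass the test. Ptgs2, the inducible cyclooxygenase, had log2 signals of 9.83, 11.79 and 10.49 in the mD1R replicates, against 10.49, 10.20 and 10.28 in the PBS replicates, on its brighter probe set, 1417262_at. The second probe set, 1417263_at, had 6.67, 8.22 and 6.62 in the mD1R replicates, against 7.59, 7.65 and 7.65 in the PBS replicates. The PBS arrays lay close together on both probe sets and the mD1R arrays were spread around them, with mD1R replicate 2 the highest array on each. The changes were 0.38 ± 0.44 (SE, adjusted p = 0.612) and -0.46 ± 0.44 (adjusted p = 0.522), of opposite sign. Leaving out mD1R replicate 2 turned the first to -0.17. The per-array difference between the 2 probe sets was 0.84 higher with mD1R (exact two-sided permutation p = 0.1, the smallest that 3 against 3 arrays allows, and 0.15 adjusted over the 3 pairs of probe sets compared, the pair of Hdc included, which gave p = 0.2).

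Hpgds, the hematopoietic enzyme that makes prostaglandin D2, had log2 signals of 9.11, 7.61 and 7.43 in the mD1R replicates, against 7.56, 5.91 and 6.40 in the PBS replicates. Replicate 1 was the highest array of each group, and PBS replicate 1 lay above the lowest mD1R array. The change of 1.42 ± 0.56 (SE) had an adjusted p of 0.134 and did not pass, whereas with array weights it was 1.69 and passed (adjusted p = 0.0322).

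The leukotriene genes split. Ltc4s, which joins leukotriene A4 to glutathione to make leukotriene C4, had log2 signals of 9.01, 10.60 and 7.16 in mD1R replicates 1, 2 and 3, against 5.87, 4.21 and 4.17 in PBS replicates 1, 2 and 3. The groups did not overlap, with a gap of 1.29 between mD1R replicate 3 and PBS replicate 1. The change was 4.17 ± 0.85 (SE, n = 3 per group, limma adjusted p = 0.0216). PBS replicates 2 and 3 and the PBS mean of 4.75 lay below the filter level of 5.27, and with a pseudocount of 16 on the linear signal the change was 3.52, so its rank among the mediator genes is not given. The call was lost without mD1R replicates 1 or 2 (adjusted p = 0.0526 and 0.0658) and without PBS replicates 2 or 3 (0.0778 and 0.0920), with changes between 3.33 and 4.13 in those fits.

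The upstream leukotriene genes did not pass. Alox5, the lipoxygenase that makes leukotriene A4, had log2 signals of 10.74, 10.49 and 11.74 in the mD1R replicates, against 11.19, 11.79 and 11.82 in the PBS replicates. As for Hdc, mD1R replicates 1 and 2 were the lowest arrays and mD1R replicate 3 lay among the PBS arrays. The change was -0.61 ± 0.34 (SE, adjusted p = 0.275), and without mD1R replicate 3 it was -0.99 (adjusted p = 0.0267). Alox5ap, which presents arachidonate to that enzyme, had log2 signals of 13.85, 14.57 and 14.71 in the mD1R replicates, against 14.19, 14.87 and 14.91 in the PBS replicates. Replicate 1 was the lowest array in each group. The change was -0.28 ± 0.29 (SE, adjusted p = 0.568).

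Cyp11a1, the mitochondrial enzyme that cleaves the side chain of cholesterol in the first step of steroid synthesis, was measured by 3 probe sets. On the brightest, 1448804_at, log2 signals were 11.72, 11.39 and 12.70 in mD1R replicates 1, 2 and 3, against 8.46, 8.76 and 8.34 in PBS replicates 1, 2 and 3. The gap between the groups was 2.63, the widest of the mediator probe sets, and mD1R replicate 3 was the highest array. The change was 3.41 ± 0.33 (SE, n = 3 per group, limma adjusted p = 0.00961) and lost its call only without PBS replicate 3 (3.32, adjusted p = 0.0675).

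The second Cyp11a1 probe set, 1439947_at, had 6.08, 5.92 and 5.80 in the mD1R replicates, against 5.33, 4.99 and 3.93 in the PBS replicates, near the filter level. Its groups did not overlap either, but its change of 1.18 ± 0.47 (SE, adjusted p = 0.139) did not pass. The difference between the first and second probe sets was 2.23 higher with mD1R (exact two-sided permutation p = 0.1, the smallest possible, and 0.15 adjusted over 3 pairs). The third, 1457604_x_at, had 4.69, 4.72 and 2.33 in the mD1R replicates, against 4.16, 1.12 and 0.13 in the PBS replicates. It lay below the filter and was not tested. In all, 5 of the 12 tested probe sets had groups that did not overlap, all 5 higher with mD1R, against 36% of all tested probe sets in either direction and 17.3% higher. Of these 5, Ltc4s and 1439947_at had PBS means below the filter level (4.75 for each) and passed the filter through the mD1R arrays. Probe sets kept in this way lean towards the higher direction, so these members of the count carry less weight.

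**Figure D2:**
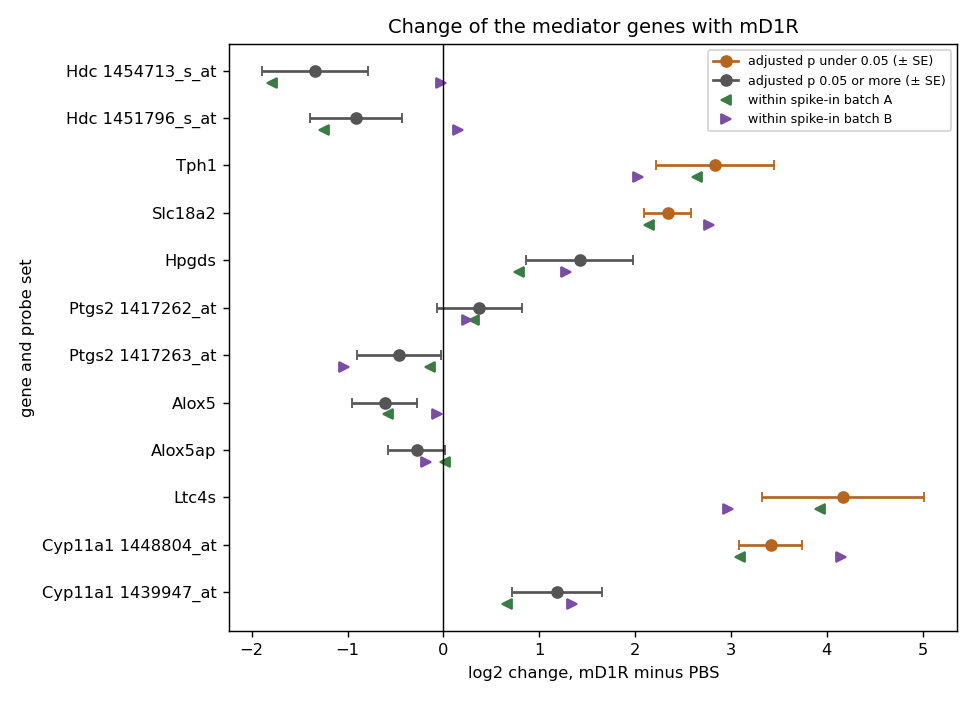
Log2 change, mD1R minus PBS (horizontal axis), of the 12 tested probe sets of the mediator genes (vertical axis). Circles are limma estimates with SE bars, orange where the adjusted p was under 0.05, and triangles are differences within spike-in batch A (pointing left) and B (pointing right), each with 1 array on one side. The 4 orange probe sets lie between 2.34 and 4.17, and the 2 probe sets of Hdc lie near 0 within batch B alone.

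The mediator genes did not share one pattern over the arrays. Slc18a2 and Cyp11a1 followed each other closely (Pearson r = 0.998 over 6 arrays), and both were highest in mD1R replicate 3. Tph1 and Ltc4s (r = 0.898) were also higher with mD1R, but among the mD1R arrays replicate 3 was their lowest. Hdc and Alox5 (r = 0.931) stood at the PBS level in mD1R replicate 3 and lower in the other mD1R arrays, and Hdc ran against Tph1 (r = -0.892). These coefficients describe 6 arrays that share the group difference and the scaling of each array.

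Among 11697 other named genes, each taken by its brightest tested probe set, those with the signal pattern most like a mediator gene over the 6 arrays were the following. Stoml1 (r = 0.994) and Hemk1 (0.994) were closest to Cyp11a1, and Pign (0.996) and Pnpla6 (0.996) to Slc18a2. All 4 of these also rose with mD1R, by 0.78, 0.86, 0.74 and 0.77 on the log2 scale (adjusted p = 0.0378, 0.0356, 0.0323 and 0.0404). Dyrk2 (0.999), which rose by 0.97 (adjusted p = 0.0416), and Nrip1 (0.997), which did not pass, were closest to Ltc4s, and Akr7a5 (0.998) and Fam91a1 (0.997), which did not pass, to Tph1. Mxd1 (0.999) and Vamp5 (0.998) were closest to Hdc, Usf1 (0.998) and Usp34 (0.994) to Alox5, Asns (0.996) and Ggnbp2 (0.994) to Alox5ap, Ndufaf4 (0.997) and Psmg2 (0.994) to Hpgds, and Eif3e (0.985) and Pim3 (0.982) to Ptgs2. None of these 10 passed the test. The lowest of these coefficients was 0.982, and with so many genes and 6 arrays they are given as a description.

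Companion genes of the same pathways were described from 5 lists of cofactor, transport, breakdown and receptor genes. Of 110 listed genes, 72 were measured, 25 lay below the filter and 13 had no probe set with a single symbol. Of the 72, 19 were higher and 5 lower with mD1R, against 8.49% higher and 7.09% lower among 12320 genes tested. Among the 19, Maob and Htr2b had PBS means below the filter level (4.14 and 4.54) and passed the filter through the mD1R arrays. Genes kept in this way lean towards the higher direction. The median log2 change of the 72 was 0.31, against 0.09 for all genes. Without mD1R replicates 1, 2 and 3, 15, 7 and 24 of the 24 companion calls remained, and without PBS replicates 1, 2 and 3, 12, 5 and 0 remained. A block for spike-in batch left 23.

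Of 15 measured amine companions, 6 were higher and 0 lower at an adjusted p of 0.05 in limma, with a median change of 0.48. Slc6a4, the transporter that takes serotonin back into cells, had log2 signals of 9.43 ± 0.59 (SD) with mD1R and 6.83 ± 0.34 with PBS, a change of 2.59 ± 0.34 (SE, adjusted p = 0.0109). Gch1, which starts the synthesis of the biopterin cofactor of Tph1, rose by 1.51 ± 0.30 (adjusted p = 0.0197), and its second probe set rose by 1.53. The amine-degrading oxidases rose as well, Maob by 3.22 ± 0.66 (adjusted p = 0.0224), with PBS signals of 4.91, 4.03 and 3.48 that lay below the filter level, and Maoa by 1.01 ± 0.22 (adjusted p = 0.0264). The other 2 were the serotonin receptor gene Htr2b and the cofactor-recycling gene Qdpr, which rose by 3.53 and 0.89, Htr2b against PBS signals of 6.29, 4.57 and 2.76, whose mean lay below the filter level. A second Qdpr probe set gave 0.94 and did not pass (adjusted p = 0.0836). Leaving out 1 array ended the calls of Maoa, Maob, Htr2b, Qdpr and Gch1 in 2 or more of the 6 such fits, and that of Slc6a4 only without PBS replicate 3.

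Of 13 measured prostanoid companions, 5 were higher and 2 lower, with a median change of 0.88. Tbxas1, which makes thromboxane, had log2 signals of 10.73 ± 0.13 (SD) with mD1R and 9.08 ± 0.24 with PBS, and rose by 1.65 ± 0.20 (SE, limma adjusted p = 0.00968). Genes for prostaglandin E2 receptors rose, Ptger3 by 2.48 ± 0.36 (adjusted p = 0.0113) and Ptger2 by 1.24 ± 0.21 (0.0149), as did the prostacyclin receptor gene Ptgir (1.13) and the carbonyl reductase gene Cbr1 (1.59). Hpgd, the dehydrogenase that inactivates prostaglandins and is not to be confused with Hpgds, had log2 signals of 5.76, 5.02 and 6.79 in the mD1R replicates, against 9.73, 8.55 and 8.65 in the PBS replicates, and fell by 3.12 ± 0.50 (adjusted p = 0.0130). Abcc4, an exporter of prostaglandins, fell by 0.95. Without mD1R replicate 2, 3 of these 7 calls remained, without PBS replicate 2, 4 remained, and without PBS replicate 3, 0 remained.

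Among 14 leukotriene and lipoxygenase companions, 1 was higher and 2 lower, with a median change of -0.41. Lta4h, which turns leukotriene A4 into leukotriene B4 and so uses the same precursor as Ltc4s, had log2 signals of 11.47, 11.85 and 12.99 in the mD1R replicates, against 13.98, 14.05 and 14.18 in the PBS replicates. It fell by 1.96 ± 0.36 (SE, limma adjusted p = 0.0167), and a second probe set fell by 2.56. Ltb4r1, a receptor for leukotriene B4, fell by 1.53 ± 0.34 (adjusted p = 0.0270), and Abcc1, which exports leukotriene C4, rose by 1.37 ± 0.25 (adjusted p = 0.0171), with 1.69 on a second probe set that also passed. All 3 calls were lost without mD1R replicate 2 or any 1 PBS replicate. The probe sets of Cotl1, a gene chosen after its values were seen, whose product binds the Alox5 enzyme, differed in call: the brightest gave -0.46 (adjusted p = 0.186), and 5 others fell by 0.87 to 1.08.

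Of 18 genes of arachidonate release and recycling, 5 were higher and 0 lower in limma at an adjusted p of 0.05, with a median change of 0.46. They were Acsl4, which couples arachidonate to coenzyme A (1.20 ± 0.17, SE, adjusted p = 0.0113), Lpcat3, which puts it back into phospholipid (11.19 ± 0.32 with mD1R and 10.18 ± 0.09 with PBS, mean ± SD, adjusted p = 0.0217), the cytosolic phospholipase gene Pla2g4a (0.85 ± 0.19, adjusted p = 0.0269), Pla2g7, which inactivates platelet-activating factor (1.73 ± 0.41, adjusted p = 0.0331), and Pla2g6 (1.26). Both further probe sets of Acsl4 rose too, by 1.60 and 1.11, whereas a second Pla2g6 probe set gave -0.84 and did not pass. Pla2g6 also lost its call when spike-in batch was a block, and without PBS replicate 2 none of the 5 passed.

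Of 12 measured steroid companions, 2 were higher and 1 lower, with a median change of 0.07. A further 9 of the 25 listed lay below the filter and were not tested, among them Cyp17a1 and Hsd3b1, which act after Cyp11a1 in steroid-making glands. Hsd3b7, known for bile acid synthesis rather than for hormones, rose by 1.37 ± 0.21 (SE, limma adjusted p = 0.0120). Akr1c18, which inactivates progesterone, rose by 2.54 ± 0.56 (adjusted p = 0.0265), and Hsd11b1, which regenerates active glucocorticoid, fell by 2.72 ± 0.55 (adjusted p = 0.0209). Without PBS replicate 2 none of these 3 passed.

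**Figure D3:**
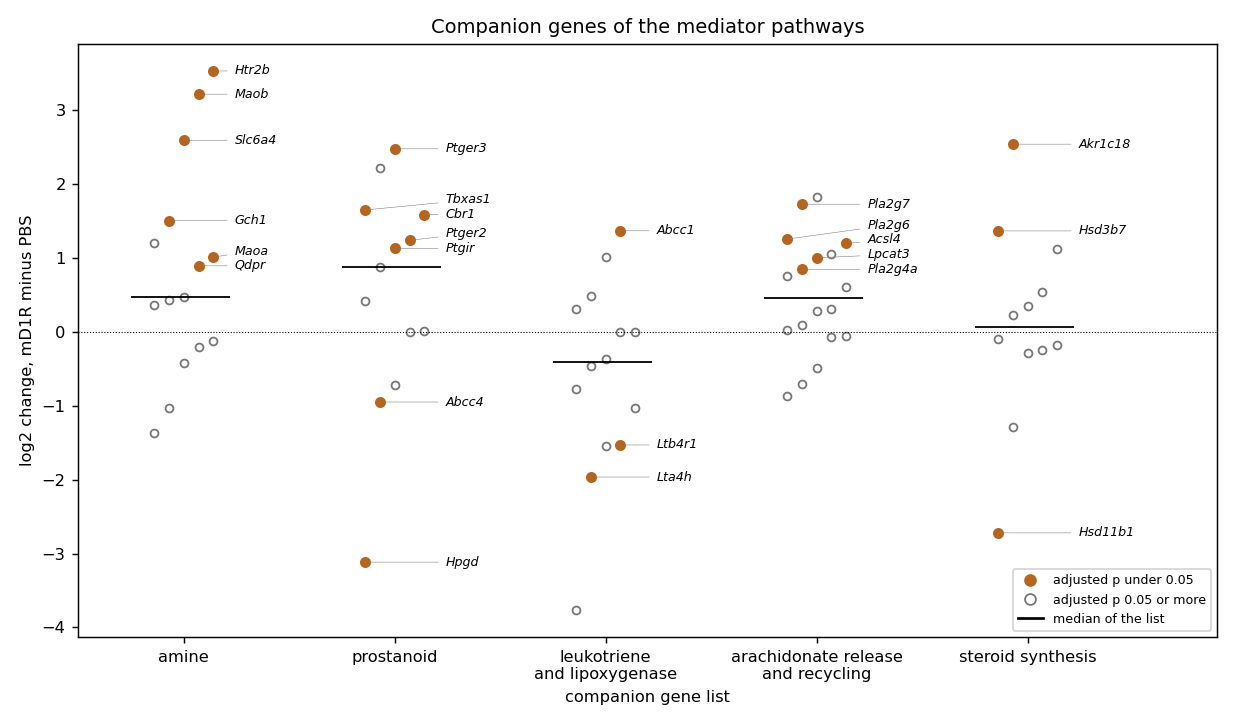
Log2 change, mD1R minus PBS (vertical axis), of the 72 measured companion genes in 5 lists (horizontal axis), each gene by its brightest tested probe set. Filled points passed an adjusted p of 0.05 and carry the gene symbol, open points did not, and the black line is the list's median. Rises outnumber falls among the filled points of the amine, prostanoid and arachidonate lists, and 2 of the 3 in the leukotriene list are falls.

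Markers of other cells that the gate or the culture could hold were read on the same arrays, each gene by its brightest probe set, and their calls are to be read against the 8.49% higher and 7.09% lower among all genes tested. Of 11 tested mast cell markers without any mediator gene, 9 were higher and 0 lower with mD1R, and the log2 of their summed signal was 16.04 to 16.24 on mD1R arrays, against 13.58 to 13.93 on PBS arrays. Among the 9, Tpsg1 and Mcpt4 lay below the filter level on every PBS array (PBS means 4.09 and 3.39). Both passed the filter through the mD1R arrays, as Ltc4s did, which leans towards the higher direction. The basophil markers had 3 of 5 higher (14.61 to 15.71 with mD1R, 12.76 to 13.88 with PBS), the platelet markers 2 of 9 (15.24 to 15.90 with mD1R, 13.12 to 14.48 with PBS) and the monocyte and macrophage markers 5 of 12 (16.69 to 17.35 with mD1R, 15.85 to 16.11 with PBS). Of 13 neutrophil markers 1 was lower, and their sum was 15.83, 17.28 and 18.49 in mD1R replicates 1, 2 and 3, against 18.16 to 18.51 with PBS. The 5 tested eosinophil markers had 0 calls (8.63 to 13.06 with mD1R, 11.10 to 14.39 with PBS), and 1 of 6 endothelial markers was higher (11.16 to 12.38 with mD1R, 10.01 to 10.97 with PBS). No marker was at 0 on any array. The mast cell, basophil, platelet, macrophage and endothelial sums did not overlap between the groups and were higher with mD1R, as Tph1, Slc18a2, Ltc4s and Cyp11a1 were, and their part in these changes was not tested. The lists share genes, Fcer1a being in the mast cell and basophil lists and Vwf in the platelet and endothelial lists. The sums are of linear signal, so the brightest genes weigh most in them and they do not describe every gene of a list. Mcpt8 was the brightest basophil marker on every array, and Pf4 the brightest platelet marker. The endothelial sum rests mostly on Vwf and Pecam1. All 6 tested endothelial markers had positive changes, with 1 call, whereas Cdh5, Emcn, Tek and Tie1 lay below the filter and were not tested. The vascular cadherin gene Cdh5 had 4.07, 4.89 and 2.57 in the mD1R replicates, against 6.81, 6.52 and 6.14 in the PBS replicates. Emcn had 3.27, 4.66 and 4.30 with mD1R, against 6.30, 4.89 and 5.27 with PBS. Both ran against that sum without overlap between the groups, and Tek and Tie1 differed by 0.12 and -0.01. In the macrophage list Cd163 ran against the sum and did not pass (limma adjusted p = 0.0643). It had 5.28, 4.19 and 5.96 in the mD1R replicates, against 9.24, 6.94 and 6.67 in the PBS replicates.

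Within the mD1R group the marker genes did not share one order. Of the 12 mast cell markers, 4 were highest in mD1R replicate 3 among the mD1R arrays, as Slc18a2 and Cyp11a1 were, and these were the IgE receptor genes Fcer1a and Ms4a2 and the granule protease genes Cpa3 and Gzmb. A further 7 were lowest there, as Tph1 and Ltc4s were, namely Cma1, Mcpt1, Mcpt2, Mcpt4, Tpsg1, Tpsab1 and Kit, and Tpsb2 lay between. Fcer1a had 12.15, 12.56 and 13.96 in the mD1R replicates, Cpa3 had 14.33, 14.40 and 14.61, and Cma1 had 13.29, 13.40 and 11.32. The neutrophil marker sum was at the PBS level in mD1R replicate 3, as were Hdc and Alox5. Not every gene of that list was: Mmp9 (12.63), Mpo (13.93) and Prtn3 (13.52) lay below every PBS array there. The other genes of the list lay within or above their PBS range. What these arrays share beyond the mediator genes was not tested.

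**Figure D4:**
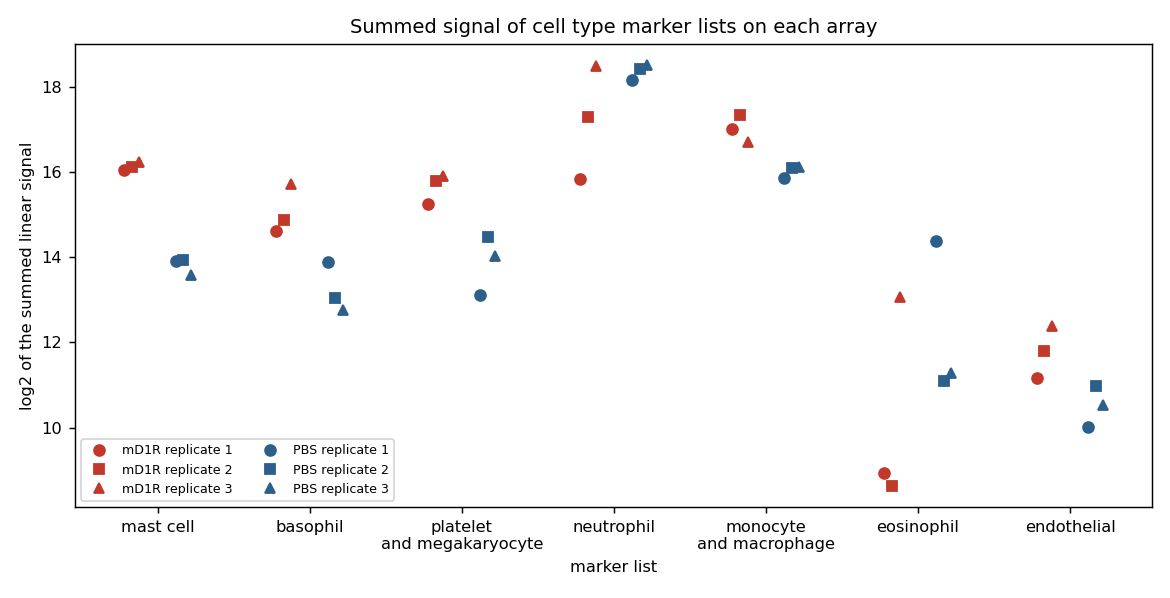
Log2 of the summed linear signal (vertical axis) of 7 marker lists (horizontal axis) on each array, with mD1R arrays in red on the left and PBS arrays in blue on the right; marker shape gives the replicate number. The groups stand apart for the mast cell, basophil, platelet, macrophage and endothelial lists, and mD1R replicate 3 lies with the PBS arrays for the neutrophil list.

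Facts of the whole series that touch these results are as follows. Of the gate's genes, Kit was above the filter level on every array, and Ly6a, which encodes Sca-1, was not analysed here. Ptprc, which the gate as given above does not name, and the lineage gene Itgam were also above that level on every array. The BioB spike-in control, relative to the other hybridisation controls, was -3.29 to -3.17 (log2) for mD1R replicates 1 and 2 and PBS replicate 1, called batch A, and -5.77 to -5.69 for mD1R replicate 3 and PBS replicates 2 and 3, called batch B. Within batches A and B the changes were 2.65 and 2.03 for Tph1, 2.15 and 2.77 for Slc18a2, 3.93 and 2.97 for Ltc4s, and 3.09 and 4.15 for Cyp11a1. For genes that did not pass they were 0.79 and 1.28 for Hpgds, 0.32 and 0.25 for the brighter probe set of Ptgs2, -0.58 and -0.06 for Alox5 and 0.02 and -0.18 for Alox5ap. Each such value has 1 array on one side. The signal of the beta-actin control at the 3′ end minus that at the 5′ end, a sign of RNA length, was 0.37 to 0.46 with mD1R and 0.20 to 0.27 with PBS (log2), and its part in the changes was not tested. The same difference for the Gapdh control was -0.41 to -0.26 with mD1R and -0.48 to -0.33 with PBS, which overlap.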

How the data were processed

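For 6 arrays of 45101 probe sets the authors deposited log2 signals made with MAS5 (no version given), per the submitters' processing notes. Arrays had been scaled one by one to a mean linear signal of 500 after 2% trimming, as the values show, and linear values under 1 stand as log2 0 (239 to 422 per array). MAS5 subtracts mismatch signal, which makes low values noisy. Detection calls were not used here. The genome build is not given in the sources used here. Array medians were 6.07 to 6.42 (log2), and the number of arrays limits the precision (median SE of a log2 change 0.31).

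The test of mD1R against PBS was limma 3.58.1 under R 4.3.3 (two-sided, lmFit and eBayes with trend) without further scaling. The 64 control probe sets were left out, and so were those with a mean log2 signal under the 40th percentile (5.27), which left 27022. Benjamini-Hochberg adjustment ran over all of them. Folds are 2 to the power of the fitted change. Gene-level values come from the brightest tested probe set that names the gene alone. Of the non-control probe sets 34945 had 1 symbol in the platform annotation, 932 several and 9160 none, and 0 symbols changed through the RefSeq table. The fit was tested on simulated data.

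The mediator genes and all lists were chosen with earlier results of these data known. Named companions are up to 4 per list by smallest p among those called, the other called ones being added afterwards.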

Additional observations from a re-analysis of the deposited data

How the results depend on the processing

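All alternatives concern limma fits of the same 6 arrays, and those for the companion genes were chosen after seeing the data. The count of probe sets called was 3413, against 2213 with no variance trend, 6508 with array weights, 108 at an adjusted p of 0.01, and 0 to 5554 with 1 array left out. Of the mediator probe sets, 4 were called higher, against 2 at an adjusted p of 0.01 and 0 to 4 with 1 array left out. Their count called lower was 0, against 3 with array weights (both of Hdc and that of Alox5) and 0 to 3 with 1 array left out, the 3 arising without mD1R replicate 3. Array weights also brought Hpgds past the threshold (1.69, adjusted p = 0.0322). The companion counts of 19 higher and 5 lower became 0 to 22 and 0 to 7 with 1 array left out, and 9 were lower with array weights. Same-numbered replicates did not all deviate together (r = 0.31, 0.03 and 0.13), so the numbers were not taken to pair the arrays, and the replicate block gave 4619 probe sets called and 5 mediator probe sets higher, the fifth being Hpgds (1.42, adjusted p = 0.0190). The brighter Ptgs2 probe set lay between -0.17 and 0.81 with 1 array left out, the lowest without mD1R replicate 2, and Ptgs2 as the mean of its 2 probe sets gave -0.042 where the brighter one gave 0.38. With both other scalings, the pseudocount, no filter, no variance trend, robust variance and the spike-in block, 4 mediator probe sets were called higher and 0 lower, and 3 were higher under a filter at percentile 60, where Ltc4s was not tested. For values not otherwise named here the cause of a change was not tested. Depth does not apply to arrays, and signals near the filter level, as for Ltc4s with PBS, are the least precise.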

Other observations

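A few companion genes that did not pass the test were picked after their values were seen. Alox15, a lipoxygenase of eosinophils and macrophages in the mouse, had log2 signals of 2.59, 5.94 and 7.37 in the mD1R replicates, against 11.34, 7.96 and 7.90 in the PBS replicates, with no overlap and an adjusted p of 0.0978 in limma. Fdx1, which passes electrons to the Cyp11a1 enzyme, had 11.55, 10.84 and 10.25 in the mD1R replicates, against 10.13, 9.54 and 9.60 in the PBS replicates (change 1.13, adjusted p = 0.0648 in limma). Star, which brings cholesterol to that enzyme in steroid-making glands, had 6.02, 7.10 and 6.96 in the mD1R replicates, against 7.07, 7.16 and 6.71 in the PBS replicates, and did not pass (adjusted p = 0.644 in limma). The histamine receptor gene Hrh2 differed by -1.03 ± 0.39 (SE, adjusted p = 0.124 in limma), and the histamine-degrading gene Hnmt by -0.20 ± 0.42 (adjusted p = 0.793 in limma).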
